A study of Rattus norvegicus with 8 samples.

Results

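MicroRNA levels after risperidone, a second-generation antipsychotic that blocks dopamine and serotonin receptors, were compared with those of untreated cells in C6, a rat glial tumour line. The miRNAs described are those that the array software called detected on both arrays of either group, which gave 238 of the 719 miRNAs on the array. Risperidone was added to the medium every day at 4 µg/ml for 5 days, and the controls received no drug. There were 2 risperidone and 2 control arrays among 8 in all, with haloperidol and clozapine arrays making up the rest. Both groups were C6 cells in the same serum-containing medium, a single tumour line grown without neurons, and no vehicle control is named. The labels call the arrays of a group biological repeats.

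A miRNA is a short RNA of which bases 2 to 8, the seed, pair with target mRNAs and lower their output. It is cut from a hairpin, and each side of that hairpin, the 5p and the 3p arm, can yield a mature miRNA. In glial tumours miR-21 is known to be abundant, miR-221 and miR-222 are known to repress the cell-cycle inhibitor p27, and the let-7 family is known to restrain growth-promoting genes.

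Signals were put on a log2 scale on which 0 is the array's 75th percentile of probes above background, so a level of 1 is a signal 2 times that percentile. The lowest level that was kept, the floor, was -6.21. The arrays of a group differed from each other in signal. Control 1, control 2 and risperidone 1 had 249, 242 and 249 miRNAs detected and risperidone 2 had 193. The signal that stands at a level of 0 was 1038, 948 and 1090 on the first 3 and 383 on risperidone 2, and the log10 labelling spike-in was 3.12, 3.02, 2.99 and 2.73. A slide column held only 1 group, so column and treatment cannot be told apart. Of the 238 miRNAs, all were detected on both control arrays, 193 were also detected on both risperidone arrays, 43 were missing only on risperidone 2, and 2 (miR-132-3p and miR-423-3p) were missing on both. The 45 that were missing on a risperidone array entered through the controls alone, so that their selection bears on their difference, and the counts below therefore lead with the 193.

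The mature sequences of the miRNAs on which the results turn are given first, 5′ to 3′, with the seed in capitals. They come from RefSeq (GRCr8), which matched 209 of the 238 by name. The first set holds the miRNAs that were higher with risperidone, with the abundant arm of miR-21 beside its less abundant one.

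miR-290: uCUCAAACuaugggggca
miR-487b-3p: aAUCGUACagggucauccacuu
miR-494-3p: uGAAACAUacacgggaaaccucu
miR-21-3p: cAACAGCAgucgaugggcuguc
miR-21-5p: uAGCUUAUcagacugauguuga
miR-338-3p: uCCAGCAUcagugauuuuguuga
miR-212-3p: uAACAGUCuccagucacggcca

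No seed is shared within that set. The second set holds miRNAs that were lower. It has 3 shared seeds: miR-98-5p carries the let-7 seed and is shown with let-7a-5p, miR-25-3p is shown with miR-92a-3p, and miR-221-3p with miR-222-3p.

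miR-98-5p: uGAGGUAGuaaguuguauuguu
let-7a-5p: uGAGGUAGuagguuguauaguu
miR-25-3p: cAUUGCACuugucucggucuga
miR-92a-3p: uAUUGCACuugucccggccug
miR-221-3p: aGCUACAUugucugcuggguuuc
miR-222-3p: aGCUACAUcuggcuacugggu
miR-365-3p: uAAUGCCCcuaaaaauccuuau
miR-15b-5p: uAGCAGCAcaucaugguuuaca
miR-505-3p: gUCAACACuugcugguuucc
miR-505-5p: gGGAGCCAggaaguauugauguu

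No miRNA passed the test for a difference between risperidone and control in the fit without a replicate block. A few dim or mid-level miRNAs (miR-290, miR-487b-3p, miR-21-3p and miR-338-3p) were the positive differences with the lowest p, at 2-fold or more, and a broader group of miRNAs, among them all 8 measured let-7 members, lay slightly lower on the scale used here. The limma fit over all 8 arrays called 0 of 243 miRNAs tested at an adjusted p under 0.05 (0.0%), and the smallest adjusted p was 0.232. Without control 2 it called 6, miR-290, miR-487b-3p, miR-21-3p and miR-222-5p as higher and miR-26b-3p and miR-150-5p as lower, and without control 1 it called 0. With the replicate number as a block it called 1, miR-338-5p as lower (adjusted p 0.0429 by limma), a dim arm whose sign turned with normexp background correction. At an unadjusted p under 0.05 stood 22 of the 243 (9.05%), of which 4 were higher (1.65%) and 18 lower (7.41%), and with the block 61. Among the 193 detected on all 4 arrays, 4 were higher (2.07%) and 11 lower (5.7%) at that p. Both risperidone arrays lay above both control arrays for 15 of the 193 (7.77%) and below both for 60 (31.1%). In that set 110 miRNAs lay below 0 (57.0%), and the median log2 difference was -0.12, with -0.12 against control 1 alone and -0.11 against control 2 alone. Among the 243 tested, 147 lay below 0 (60.5%), 15 had both risperidone arrays above both controls (6.17%) and 80 below both (32.9%), or 95 in either direction (39.1%). With the percentile over all probes that split turned to 67 above and 16 below. A 2-fold higher mean level was reached by 11 of the 243 (4.53%) and a 2-fold lower one by 9 (3.7%). The median over all miRNAs tested was -0.15. It depended on the scaling, being 0.35 when the percentile was taken over all probes, -0.06 with quantile normalization and 0.38 with normexp background correction. A small negative difference therefore has a direction only relative to the other miRNAs on the same scale.

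The spread within a group set the precision. Over the 238 miRNAs, control 1 minus control 2 had an SD of 0.69 and risperidone 1 minus risperidone 2 an SD of 0.61, and the median standard error of a difference was 0.29. Among the 193 detected on all 4 arrays that median was 0.22 for the 56 miRNAs with a mean level above 0, 0.28 for the 73 between -3 and 0, and 0.38 for the 64 below -3. For the other 45 it was 0.33.

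The widest separation was that of miR-290, of the miR-290 to miR-295 cluster that is known from embryonic stem cells. Its hairpin lies at chr1:74880055-74880135 (GRCr8, minus strand), within the span of Nlrp12. It stood at -3.84 and -2.85 on the control arrays and at -1.53 and -1.61 on the risperidone arrays. The groups did not overlap, and the risperidone arrays lay closer to each other than the control arrays did. The fitted difference was 1.78 (SE 0.34), a 3.44-fold higher level, with an adjusted p of 0.232 by limma. Against control 1 alone the difference was 2.28 and against control 2 alone 1.29. The array held 10 miRNAs of that cluster, and miR-290 was the only one among the 238.

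A list of 38 miRNAs of the Dlk1-Dio3 imprinted region, a maternally expressed cluster that is active in brain, was read. The array held all 38. The 3 listed miRNAs that were measured lay above both control arrays with risperidone, against 7.77% of the 193. miR-770-3p (chr6:134298084-134298159, plus strand, GRCr8), from within Meg3, was also measured but is not among those 3. The values given here for the region leave it out, so they describe the 3 listed miRNAs and not every measured miRNA of that stretch. For miR-487b-3p (chr6:134562890-134562971, plus strand, GRCr8) the controls were at the floor of -6.21 and at -4.31, and the risperidone arrays at -3.74 and -3.32. The difference was 0.79 against control 2, the only control above the floor. Against the floor value of control 1 it was 2.68, and the fit gave 1.73 (SE 0.60, adjusted p 0.453 by limma), both of which depend on where the floor is set. In miR-494-3p (chr6:134550115-134550197, plus strand) the levels were 0.54 and 0.61 in controls and 0.96 and 1.43 with risperidone. Here the control arrays were nearly equal and the difference was about the same against each, at 0.65 and 0.58, with a fitted value of 0.62 (SE 0.36, adjusted p 0.508 by limma). The third, miR-370-3p, was dim and differed by 0.26 (SE 0.58), and with the deposited gene-level signal 1 of the 3 lay below 0. Their median was 0.62, against -0.12 for the 193, and 0.65 and 0.58 against each control.

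Both arms of miR-21 (chr10:71902600-71902691, minus strand, GRCr8) lay above the control mean. The less abundant arm miR-21-3p stood at -2.82 and -1.15 in controls and at -0.70 and -0.34 with risperidone. The groups did not overlap, yet the controls were far apart: the fitted difference was 1.46 (SE 0.54, adjusted p 0.453 by limma), with 2.30 against control 1 and 0.63 against control 2. The abundant arm miR-21-5p, which is the brightest miRNA of these cells, stood at 6.72 and 7.33 in controls and at 7.24 and 7.37 with risperidone. Control 2 lay between the risperidone arrays, and the difference of 0.28 (SE 0.28) was 0.59 against control 1 and -0.03 against control 2.

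miR-338-3p, which is made from an intron-borne hairpin of the kinase gene Aatk and is known to promote oligodendrocyte maturation, was at -1.30 and -0.52 in controls and at 0.53 and -0.18 with risperidone. Each risperidone array lay above each control array, with a difference of 1.09 (SE 0.36, adjusted p 0.453 by limma), or 1.48 and 0.70 against control 1 and control 2. miR-212-3p, which is known to respond to the activity-dependent factor CREB, was at -0.40 and 0.16 in controls and at 0.26 and 0.75 with risperidone. It differed by 0.62 (SE 0.27, adjusted p 0.453 by limma), by 0.90 against control 1 and by 0.35 against control 2. Its cluster partner miR-132-3p has the same seed, as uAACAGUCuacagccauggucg, but was near the floor in controls (-6.03 and -6.09) and not detected with risperidone, so no fold is given.

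**Figure D1:**
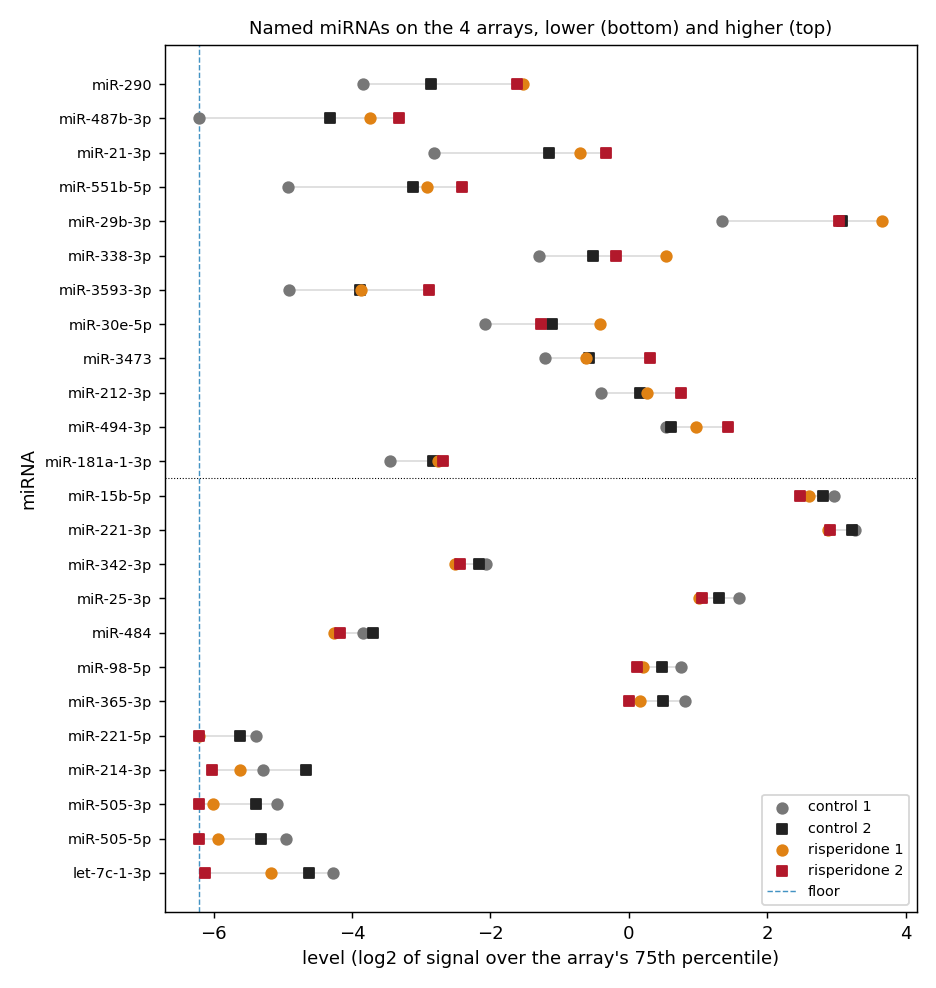
Log2 levels (x axis, relative to each array's 75th percentile) of the 12 highest-ranked higher and 12 highest-ranked lower miRNAs (y axis) on control 1, control 2, risperidone 1 and risperidone 2. Among the higher miRNAs control 1 is the lowest point in 12 of 12, and 5 of the lower ones lie near the floor at -6.21. The lower miRNAs take positive values under another scaling or background correction, as given in the text.

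Among the other miRNAs ranked by size relative to their error, miR-551b-5p was at -4.92 and -3.11 in controls and at -2.92 and -2.41 with risperidone. miR-3593-3p was at -4.91 and -3.89 in controls and at -3.88 and -2.89 with risperidone. For both, control 2 lay just below the lower risperidone array. Differences for the pair were 1.35 (SE 0.60) and 1.02 (SE 0.47), which against control 2 alone came to 0.45 and 0.51. miR-29b-3p, which is known to repress collagen genes, stood at 1.34 and 3.09 in controls and at 3.66 and 3.03 with risperidone. It overlapped, and its difference of 1.13 (SE 0.69) was 2.00 against control 1 and 0.26 against control 2. Overlap was also seen for miR-30e-5p (0.76, SE 0.44) and for miR-3473 (0.73, SE 0.37), while the arrays of miR-181a-1-3p did not overlap at a difference of 0.41 (SE 0.23), with 0.11 against control 2.

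The lower miRNAs differed by less but with a smaller spread. miR-221-3p (chrX:6023182-6023290, plus strand, GRCr8) was at 3.27 and 3.22 in controls and at 2.88 and 2.90 with risperidone, so the arrays of a group were nearly equal and the groups did not overlap. The difference was -0.36 (SE 0.11, adjusted p 0.453 by limma), with -0.38 against control 1 and -0.33 against control 2. Its cluster and seed partner miR-222-3p stood at 0.44 and 0.28 in controls and at -0.08 and 0.28 with risperidone, a difference of -0.26 (SE 0.16). Relative to the median of all miRNAs tested, miR-221-3p stood at -0.21. With the percentile over all probes its value was 0.23, below the median of 0.35 on that scale.

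miR-365-3p, which is known as a cluster partner of miR-193, was at 0.81 and 0.49 in controls and at 0.16 and 0.00 with risperidone. The groups did not overlap, and it had the lowest p of the lower miRNAs detected on all 4 arrays: the difference was -0.57 (SE 0.16, adjusted p 0.453 by limma), with -0.73 and -0.41 against control 1 and control 2. miR-98-5p, a let-7 family member from within Huwe1 (chrX:24460648-24460755, plus strand), was at 0.76 and 0.47 in controls and at 0.20 and 0.11 with risperidone. miR-25-3p, from within the replication gene Mcm7 (chr12:22156641-22156724, minus strand), was at 1.59 and 1.31 in controls and at 1.02 and 1.06 with risperidone. For both, each risperidone array lay below each control array, with differences of -0.46 (SE 0.14) and -0.41 (SE 0.14), and of -0.32 and -0.27 against control 2 alone. miR-15b-5p, of the seed family that restrains cyclins and BCL2, was at 2.97 and 2.81 in controls and at 2.61 and 2.47 with risperidone, a difference of -0.35 (SE 0.13). The dimmer miR-484 and miR-342-3p, the latter from within Evl, differed by -0.45 (SE 0.14) and -0.36 (SE 0.13), and neither overlapped. With the percentile over all probes miR-221-3p and these 6 had positive values, of which that of miR-365-3p was 0.016 and that of miR-15b-5p 0.24, all below the median of 0.35 on that scale. With normexp miR-484 (0.31) and miR-342-3p (0.075) turned positive too.

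The remaining 5 of the 12 lower miRNAs were near the floor. Both arms of miR-505 were among them: miR-505-5p stood at -4.95 and -5.32 in controls and at -5.94 and -6.21 with risperidone, and miR-505-3p at -5.08 and -5.39 against -6.00 and -6.21. Their differences were -0.94 (SE 0.20) and -0.87 (SE 0.16), each with an adjusted p of 0.232 by limma. miR-221-5p was at -5.39 and -5.62 in controls and at the floor on both risperidone arrays, and let-7c-1-3p and miR-214-3p differed by -1.20 (SE 0.40) and -0.84 (SE 0.31). All 5 were detected on 1 of 2 risperidone arrays, and a value held at the floor hides its spread. With normexp the values of all 5 turned positive (0.42 to 0.49, against a median of 0.38 over all miRNAs), so no direction can be drawn for them; the low signal of risperidone 2 stands beside them and its part in them was not tested. The largest lower value among miRNAs detected on all 4 arrays was that of miR-193-5p, at -3.58 and -4.11 in controls and at -4.69 and -6.21 with risperidone, a difference of -1.61 (SE 0.62), with risperidone 2 at the floor. miR-23a-5p, the less abundant arm of miR-23a, was at -3.20 and -3.57 in controls and at -3.94 and -4.55 with risperidone, a difference of -0.86 (SE 0.49), and neither of these overlapped. With normexp they took values of 0.34 and 0.36, so no direction can be drawn for them either.

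Set against each control array alone, the higher and the lower miRNAs differed. Control 1 was the lowest of the 4 arrays for 70 of the 83 miRNAs above 0 (of the 193) and the highest for 77 of the 110 below 0. Against control 2 alone, 49 of the 83 stayed above 0, and 100 of the 110 stayed below 0. Against control 1 alone, 79 of the 83 stayed above 0 and 100 of the 110 below 0. Of all 193, 104 lay below control 1 (53.9%) and 134 below control 2 (69.4%). The 83 and the 110 were sorted by a mean that holds both controls, so these counts follow in part from the sorting and from that overall share. A 2-fold higher level was reached by 25 of the 193 against control 1 but by 2 against control 2, and a 2-fold lower level by 8 and by 2. The 12 named higher miRNAs all stayed above 0 against control 2, and the 12 lower ones lay below both controls. They were picked by smallest p on these same arrays, so this largely follows from the choice and is no support for them. What sets control 1 apart was not tested.

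**Figure D2:**
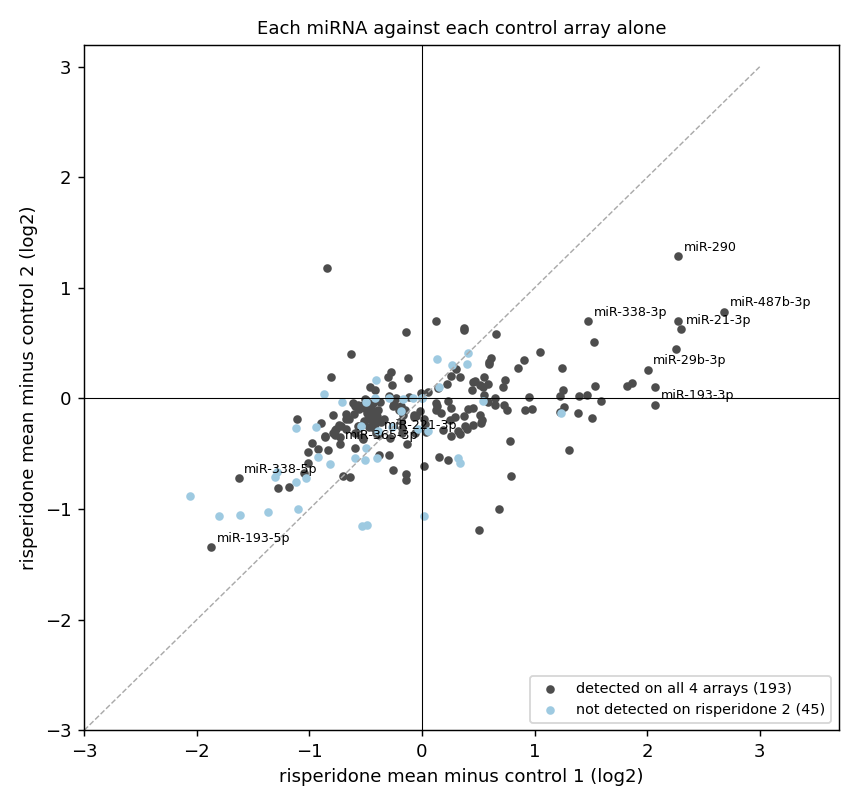
Each point is a miRNA, with the risperidone mean minus control 1 on the x axis and minus control 2 on the y axis (log2); dark points are the 193 detected on all 4 arrays and light points the 45 that were not. The cloud is wider along x than along y, and miR-290 lies farthest up, at 2.28 and 1.29.

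The 10 brightest miRNAs had differences between -0.42 and 0.48. After miR-21-5p, miR-125b-5p stood at 5.60 and 5.27 in controls and at 5.20 and 5.12 with risperidone (difference -0.27). miR-23a-3p was at 4.39 and 4.16 in controls and at 3.98 and 4.02 with risperidone (-0.28), and neither of these overlapped. miR-29a-3p (0.03) and miR-24-3p (-0.11) were nearly level, and miR-27a-3p was at 2.57 and 3.50 in controls and at 3.57 and 3.48 with risperidone (0.48). Its control 2 value lay between the risperidone arrays. The remaining 4 were let-7 members.

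The let-7 family, whose members share the seed GAGGUAG, had 8 of 8 measured members below 0, against 57.0% of the 193. With the percentile over all probes 0 of 8 were below 0 and the median was 0.18, whereas 8 of 8 were below 0 with quantile normalization and with normexp. let-7a-5p was at 4.38 and 3.85 in controls and at 3.68 and 3.74 with risperidone, and let-7f-5p at 4.42 and 3.97 against 3.83 and 3.72. For let-7d-5p the levels were 3.15 and 2.75 in controls and 2.49 and 2.46 with risperidone, a difference of -0.48, the lowest of the family. Control 1 was the highest array for each of these, and 5 of the 8 lay below both controls (31.1% of the 193 did), with let-7b-5p, let-7c-5p and let-7i-5p overlapping. The family's median was -0.41, with -0.60 against control 1 and -0.17 against control 2. Relative to the median of all miRNAs tested it was -0.26, and it stayed below that median with the percentile over all probes (-0.17), with quantile normalization (-0.18) and with normexp (-0.77). One member, miR-98-5p, had an unadjusted p under 0.05. The probes of such close sequences can share signal, so the 8 values are not independent.

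The miR-125, miR-99 and miR-100 family, which in part is made from the same transcripts as let-7, had 7 of 7 members detected on all 4 arrays below 0, against 57.0% of the 193. Their median was -0.30 (-0.44 against control 1, -0.10 against control 2), and 5 lay below both controls, against 31.1% of the 193. Among them miR-100-5p was at -0.75 and -1.25 in controls and at -1.26 and -1.71 with risperidone, a difference of -0.49. Relative to the median of all miRNAs the family lay at -0.15, and at -0.06 with the percentile over all probes, where 0 of 7 were below 0. With normexp 5 of 7 were. The miR-26 family (2 of 2 below 0, median -0.31) and the Hox-cluster miR-10 and miR-196 miRNAs (3 of 3 below 0, median -0.33) lay lower on this scale, and none of these 5 lay below 0 with the percentile over all probes. With normexp 2 of the 2 miR-26 members but 1 of the 3 Hox-cluster miRNAs lay below 0, the latter with a median of 0.13.

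The miR-34 and miR-449 family, which is known to be induced by p53 and to arrest the cell cycle, had 4 of 6 members above 0. The 4 with the shared seed GGCAGUG were the ones above, with values from 0.32 to 0.83: miR-34b-5p stood at -1.94 and -0.52 in controls and at -0.33 and -0.49 with risperidone. The 3p arms of miR-34b and miR-34c were the ones below. Against control 2 alone the 4 had a median of 0.11, with 0.88 against control 1. Of the 6, miR-34b-5p lay above both controls and both 3p arms below. The 3p arms are dim, and that side of 0 depended on the setting: 1 of the 6 lay below 0 with the percentile over all probes and 0 with normexp.

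The miR-17/92a cluster with its paralogues, known to promote growth, was split, with 8 of 13 members above 0 and a median of 0.15. It was 0.52 against control 1 and -0.20 against control 2. Against the mean of both controls the split ran partly along seeds: both miR-19 members lay above 0 (0.97 and 0.40), 4 of the 5 with the seed AAAGUGC lay above 0, and miR-92a-3p and miR-25-3p, with the seed AUUGCAC, lay below (-0.36 and -0.41). Against control 1 alone the medians of these seeds were 1.37, 0.52 and -0.53. Against control 2 alone they were 0.004, -0.22 and -0.24, so there AAAGUGC and AUUGCAC did not part. The arrays of miR-19a-3p were at -0.65 and 1.05 in controls and at 1.33 and 1 with risperidone, so control 1 alone stood apart. Of the 8 members above 0, none lay above both controls, and 4 of the 5 below 0 lay below both. All miRNAs leaned the same way. Among the 193 detected on all 4 arrays, 15 of the 83 above 0 lay above both controls. Of the 110 below 0, 60 lay below both.

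For the miR-29 family the 4 members detected on all 4 arrays were above 0, at a median of 0.19, but the median was -0.14 against control 2. The miR-101 family had a median of 0.82 over 2 members, 1.63 against control 1 and 0.01 against control 2. The miR-30 family (4 of 6 above 0, median 0.08), the miR-181 family (4 of 5 above 0, median 0.06), the cluster of miR-322, miR-503 and miR-351 (4 of 7 above 0, median 0.06) and the pair of miR-103-3p and miR-107-3p (median 0.06) were near 0. Relative to the median of all miRNAs, the values of the miR-17/92a, miR-29, miR-30, miR-181, miR-322 and miR-103 lists were positive under 3 scalings and negative with normexp (-0.02, -0.06, -0.09, -0.09, -0.11 and -0.31). The miR-15/16 family had 3 of 4 members below 0 (median -0.32), the miR-23/27/24 clusters 4 of 7 (median -0.11), and 3 miRNAs of the miR-297 and miR-466 repeats had a median of 0.02. When all probes set the percentile, 1 of the 4 miR-15/16 members and 1 of the 7 of the miR-23/27/24 clusters lay below 0, with medians of 0.27 and 0.48.

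Of miRNAs studied in schizophrenia, the main indication of the drug, 10 were detected on all 4 arrays. The 7 above 0 included miR-212-3p, miR-29b-3p and miR-30e-5p, and the 3 below 0 were miR-195-5p, miR-128-3p and miR-9a-5p. miR-128-3p, which is abundant in neurons, was at -0.82 and -1.20 in controls and at -1.37 and -1.73 with risperidone, a difference of -0.54 (SE 0.20). With the percentile over all probes its value was 0.046, below the median of 0.35 on that scale, and with normexp it was -0.20. Only it and miR-212-3p of the 10 had groups that did not overlap. Over the 193, 7.77% lay above both controls and 31.1% below both. The median of the 10 was 0.18, with 0.34 and 0.11 against each control, and relative to all miRNAs it was negative with normexp (-0.04). miR-33-5p, which lies in an intron of the sterol regulator Srebf2, was at the floor and at -4.64 in controls and at -2.96 and -4.92 with risperidone, and its value of 1.49 (SE 0.91) came with overlapping groups.

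**Figure D3:**
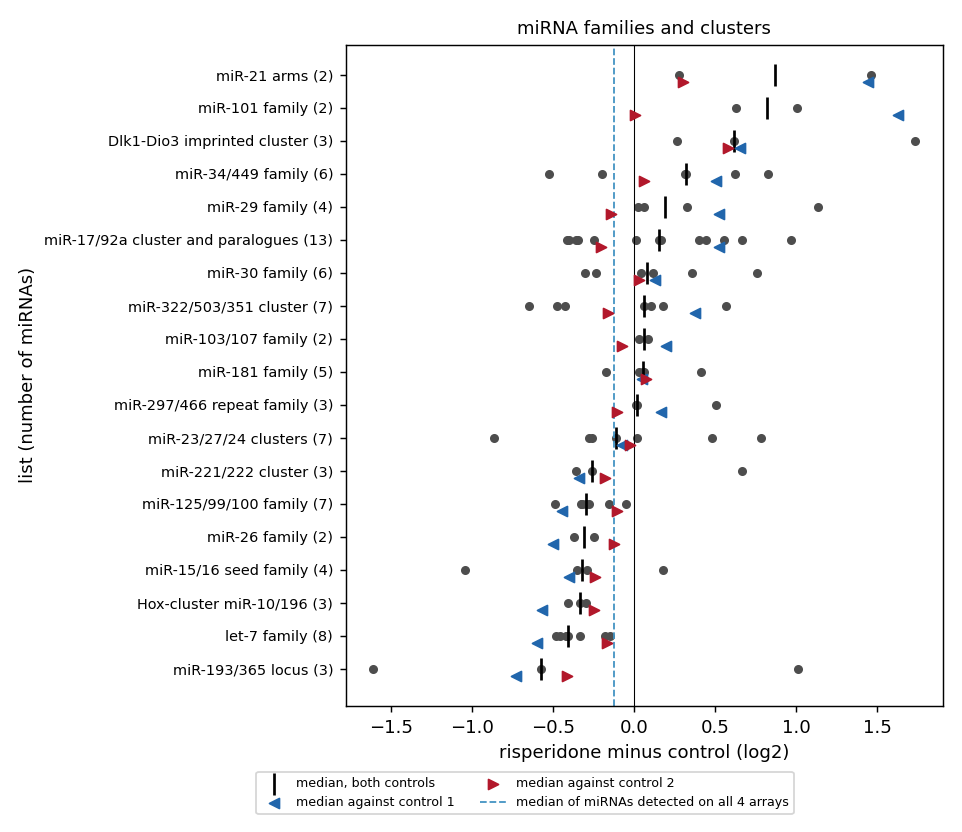
Log2 difference of risperidone minus control (x axis) for the miRNAs of each list detected on all 4 arrays (dots; y axis, list and number of miRNAs), with the list's median against both controls (bar) and against each control alone (triangles). The let-7 dots all lie below 0 (none did when all probes set the percentile). The triangles of the miR-101 list stand at 1.63 and 0.01.

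Both arms of a hairpin come from the same precursor, and the difference of 5p minus 3p on an array does not depend on the array's scaling factor, apart from values at the floor. Both arms were detected on all 4 arrays for 29 hairpins. The arms lay on the same side of 0 in 12 and on opposite sides in 17, and in 14 of the 17 the 5p arm was the one above. In 14 of the 29 (48.3%) the arm difference did not overlap between the groups. The count on the same side was 12 against control 1, 18 against control 2, 17 for control 1 against control 2 and 18 for risperidone 1 against risperidone 2. That count moved with the scaling: it was 8 with quantile normalization and 23 when the percentile was taken over all probes. The arm values moved as well. For miR-338 the 5p and 3p arms differed by -0.95 and 0.87 with quantile normalization and by 0.42 and 0.997 with normexp. On the scale used here they differed by -1.18 and 1.09. How many of the 29 arm differences do not overlap under those settings was not counted.

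The largest shifts in arm balance were those of miR-193 and miR-338. In miR-193 the 5p minus 3p difference was -0.03 and -2.69 in controls and -3.45 and -4.50 with risperidone. In miR-338 it was -2.73 and -4.41 in controls and -5.64 and -6.03 with risperidone. In both the 3p arm is the brighter one, and its excess was larger on each risperidone array than on each control array. For miR-338 the 5p arm differed by -1.18 (SE 0.60) and the 3p arm by 1.09, and for miR-193 the 5p arm by -1.61 and the 3p arm by 1.01, or -0.05 against control 2 alone. With normexp no arm of either lay below 0: miR-338-5p and miR-193-5p had values of 0.42 and 0.34, and miR-338-3p and miR-193-3p of 0.997 and 0.813. The 5p arms of both were at the floor on risperidone 2, so the difference on that array is a minimum for the excess of the 3p arm. In miR-21 the excess of the 5p arm narrowed, from 9.54 and 8.48 in controls to 7.94 and 7.71 with risperidone, and in miR-34b it widened, from 2.72 and 4.29 to 4.97 and 4.75. Control 1 was the array farthest from the risperidone arrays for each of the 4 hairpins.

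**Figure D4:**
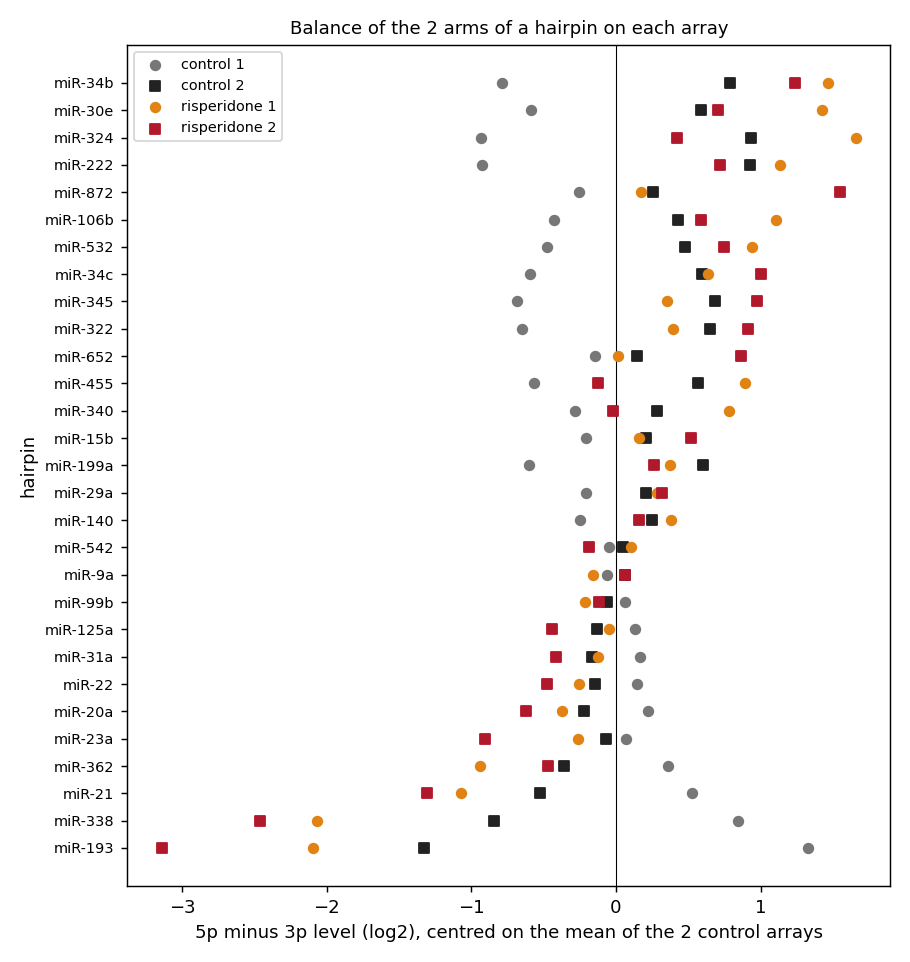
The 5p minus 3p level (log2, x axis), centred on the mean of the control arrays, for the 29 hairpins (y axis) with both arms detected on all 4 arrays. Risperidone points lie outside the control points in 14 of the 29, and miR-193 and miR-338 lie farthest to the left.

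Neighbouring hairpins were compared by grouping those within 10000 bases of each other in GRCr8. The transcript with miR-99b, let-7e and miR-125a (chr1:67350064-67350759) had 5 of 5 miRNAs below 0, from -0.40 to -0.05, where 57.0% of the 193 lay below 0. The group with let-7a-1, let-7f-1 and let-7d (chr17:16320133-16322357) had 4 of 4 below 0, from -0.48 to -0.13. When all probes set the percentile, 0 of the 5 and 0 of the 4 lay below 0, and with normexp 3 of each did. In the miR-17 to miR-92a cluster (chr15:98587848-98588632) 2 of 9 lay below 0 and values ran from -0.36 to 0.97. With quantile normalization 4 of the 9 lay below 0, and 1 did with all probes and with normexp. It also depended on the control: of the 13 miRNAs of that cluster and its paralogues, 4 lay below control 1 but 11 below control 2. A mature miRNA made from several hairpins was counted at each, so these groups share miRNAs.

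Marker lists were read for the labelled cell type and for others. The 6 miRNAs of the glial list were detected on all 4 arrays, with a summed level of 7.65 and 7.94 in controls and 7.85 and 7.91 with risperidone. None of the 6 epithelial markers was detected on any array, and the skeletal muscle miR-206-3p and miR-133b-3p were low, at -3.72 to -4.90 in controls, and not detected on risperidone 2. The 4 listed oligodendrocyte miRNAs on the array, 3 of them detected, summed to -0.97 and -0.28 in controls and to 0.70 and -0.07 with risperidone. miR-338-3p dominates that sum, and the groups did not overlap in it. The list did not move as a whole. Its member miR-338-5p lay below both controls (-1.18), though its sign turned with normexp. Against control 2 alone 2 of the 3 lay below 0 (median -0.08). Among markers of microglia and leukocytes miR-146a-5p was detected on all 4 arrays, among those of endothelium miR-126a-3p, and among those of mesenchyme miR-199a-3p and miR-199a-5p. Of 6 neuron-list miRNAs all lay below 0 (median -0.15), equal to the median over all miRNAs, and 0 of 6 did with the percentile over all probes. In RNA from whole cultures a change in the share of cells of a kind and a change in RNA per cell cannot be told apart.

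The GC content of the mature sequence had little relation to the difference. Over the 171 of the 193 with a RefSeq sequence, Spearman's rho across miRNAs was 0.07 for risperidone against control and -0.34 for risperidone 1 against risperidone 2. These miRNAs share the same 4 arrays, so the values are a description.

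Risperidone was also set against the other drugs, which were given at other doses, so the values are given beside each other only. limma called 0 of 243 miRNAs (0.0%) against haloperidol, with 0 at an unadjusted p under 0.05, and 0 (0.0%) against clozapine, with 4 (1.65%) at that p. The miRNAs furthest from haloperidol relative to their error included miR-296-5p (0.77, SE 0.33) and miR-34a-3p (-0.85, SE 0.38). Against clozapine miR-188-5p was at -4.07 and -3.54 with risperidone and at -4.39 and -4.93 with clozapine, a difference of 0.86 (SE 0.26), while miR-30a-3p differed by -0.46 (SE 0.16). Both miR-34a-3p and miR-30a-3p were dim, at mean levels of -5.01 and -4.67 over the risperidone and control arrays. Neither was detected on risperidone 2, the array with low signal, and the part of that signal in their lower values was not tested. Against the shared controls, miR-290 differed by 1.78 with risperidone, 1.41 with haloperidol and 0.99 with clozapine. miR-494-3p differed by 0.62 with risperidone, -0.01 with haloperidol and 0.10 with clozapine, and miR-221-3p by -0.36, -0.35 and -0.26. These comparisons use the same control arrays, so their likeness is not independent evidence. That few miRNAs differed between the drugs at this precision does not show that the drugs act alike.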

How the data were processed

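RNA (100 ng of total RNA per array) was measured on Agilent rat miRNA arrays (design 046066), 8 on 1 slide with 1 scan. Per the file headers the deposited values are background-subtracted signals of unit intensity, made with Feature Extraction 10.7.3.1, not scaled between arrays. The deposited detection and outlier flags (unit other) take the values 0 or 1, and the deposited gene-level signal is 0.1 where a miRNA was not detected (100% of such entries). For each probe the spots that were no outliers were averaged, probes were added up per miRNA, and sums were scaled by the array's 75th percentile among the 292 probes above background throughout. Scaled values under 0.0135, the 5th percentile of the detected ones, were set to that floor before log2. Any of 243 miRNAs detected on both arrays of some group was tested with limma 3.58.1 in R 4.3.3 on group means over 8 arrays (4 residual and 5.42 total degrees of freedom), two-sided, with Benjamini-Hochberg adjustment over the 243 and a threshold of 0.05. The number of arrays limits the precision. The smallest p of an exact permutation test with 2 arrays a group is 0.333, so none was used. The smallest-p 12 miRNAs in each direction, the 5 per direction with the widest gap between groups among those detected on all 4 arrays, the 10 brightest, those detected in only 1 group, members of miRNA lists and, against each other drug, 3 per direction were named. The members, lists and naming rule were chosen with earlier results of these data known. The fit was tested on simulated data with the fitted spread and no floor, in 50 draws with 30 of 243 miRNAs changed. It recovered 31.7% of 2-fold and 90.1% of 4-fold changes, so 0 calls does not show that no miRNA changed 2-fold. Normexp (offset 50) used spot and background medians. Alternatives changed the scaling, background correction, probe summary, filter, floor, arrays fitted, replicate block and variance model, and left out each array.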

Additional observations from a re-analysis of the deposited data

How the results depend on the processing

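Under 18 alternatives the 24 named miRNAs gave 427 values, of which 14 changed sign and 12 of the 24 miRNAs had none that did. With the percentile over all probes, miR-15b-5p was at 0.24, miR-221-3p at 0.23, miR-25-3p at 0.17, miR-342-3p at 0.23, miR-365-3p at 0.016, miR-484 at 0.14 and miR-98-5p at 0.13. With normexp, let-7c-1-3p was at 0.46, miR-214-3p at 0.42, miR-221-5p at 0.46, miR-342-3p at 0.075, miR-484 at 0.31, miR-505-3p at 0.49 and miR-505-5p at 0.44. Both settings move the median of all miRNAs to 0.35 and 0.38.

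The 0 calls by limma against control became 1 without a filter (miR-221-3p, adjusted p 0.0498), 1 with a replicate block (miR-338-5p, adjusted p 0.0429) and 0 to 6 when an array was left out. The 6 came without control replicate 2 and included miR-487b-3p, miR-21-3p and miR-290; without control replicate 1 there were 0. The 22 miRNAs at an unadjusted p under 0.05 became 12 with all probes, 14 with a lower floor, 3 with normexp, 9 when detection on all 8 arrays was required, 5 with only the 4 arrays, 61 with the replicate block and 11 to 61 with an array left out. Against haloperidol the 0 at that p became 3 with quantile normalization, 1 with a lower floor, 1 without a filter, 5 with the block and 0 to 27 with an array left out. Against clozapine the 4 became 1 with all probes, 2 with a lower floor, 0 with normexp, 1 with detection on all 8 arrays, 7 with the block, 1 with a trended robust variance and 0 to 20 with an array left out. The 15 miRNAs above both controls became 67 with all probes, 24 with quantile normalization and 31 with normexp, and the 80 below both became 16 and 19 with all probes and normexp. The cause of these changes was not tested.

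The replicate number is also the slide row, and with only 2 numbers whether it pairs the arrays was not settled: deviations of same-numbered arrays correlated across miRNAs at 0.16 for control and risperidone, and at 0.20 to 0.71 for the other 5 pairs of groups. Where an array is left out, the lone array is assumed to vary like those of the other groups. Low signal limits what risperidone 2 can show for dim miRNAs.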
